A study of Mus musculus with 6 samples.

Results

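The IL-6 family is described here in mouse oral tumours through 8 genes chosen by symbol: the ligand genes Il6, Il11, Osm and Lif, the receptor genes Il6ra, Il11ra1 and Il6st, and the feedback gene Socs3. All 8 symbols were found among the 770 gene rows of the deposited expression table. The tumours were primary oral squamous cell carcinomas that arose in mice exposed to 4NQO, a chemical carcinogen. One group, with 3 samples, had been treated with agonistic anti-CD40, an antibody that switches on CD40, a costimulatory receptor of B cells, dendritic cells and macrophages. The other group, also 3 samples, had been given vehicle, and all 6 tumours shared the carcinogen. RNA came from fixed, paraffin-embedded tissue, so each value is an average over all cell types of a tumour. The labels give no mouse line, age, dose or interval between treatment and sampling. Nothing says that each sample was a different mouse, so a p-value here reflects only sample-to-sample spread, part of which may be technical.

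Cytokines of the IL-6 family signal through receptor complexes that contain gp130, the protein encoded by Il6st. IL-6 and IL-11 first bind their own receptor chains, encoded by Il6ra and Il11ra1, and then engage gp130. LIF and oncostatin M bind gp130 together with a further signalling chain. The complexes activate JAK kinases, which phosphorylate STAT3, and STAT3 induces Socs3, whose product binds gp130 and the JAK kinases and shuts the signal down. In carcinomas, IL-6 is known as a product of fibroblasts, myeloid cells and tumour cells, and it is among the cytokines that CD40 engagement can induce through NF-κB in antigen-presenting cells.

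No gene of the family passed the test for a change between the groups. The receptor genes and Socs3 were well above background in every tumour and their group means differed by 0.33 log2 or less. Lif was measurable but low, and Il6, Il11 and Osm lay at the level of the negative controls in most libraries. Limma on the log2 values called 0 of the 8 genes at an adjusted p of 0.05, and 0 of all 770 genes (0%). At an unadjusted p under 0.05 it called 0 of the 8 and 25 of the 770, which is 3.25%. Limma-voom on recovered whole counts also called 0 of the 8 and 0 of the 770 genes (0%). In none of the 8 did the groups stand apart without overlap, against 79 of 770 genes, or 10.3%. Of the 8, 6 had a higher mean in anti-CD40 tumours and 2 a lower one, with a median difference of 0.12 log2. Over all genes, 420 were higher and 350 lower, with a median of 0.038.

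Levels below are log2 normalized counts, and every difference is the anti-CD40 mean less the vehicle mean. The deposited values are whole counts times a library factor of 1.72 to 3.28 plus an offset of 4.55, on a log2 scale. The counts summed to between 333400 and 578598 per library over the 770 genes. A gene was taken as above background where its count exceeded the mean plus 2 SD of the 8 negative controls. That limit was 24.7 to 26.6 counts, which corresponds to 5.57 log2 in vehicle 3 and 6.52 in vehicle 2 because of their factors. Of the 8 genes, 5 lay above it in all 6 libraries and 7 in at least 1. The panel's epithelial genes Cdh1 (12.03 ± 0.097 in anti-CD40 and 12.39 ± 0.13 in vehicle tumours) and Epcam (10.91 ± 0.49 in anti-CD40 and 11.03 ± 0.75 in vehicle) lay above background in all 6 libraries (SD, n = 3 each). The keratin genes Krt5 and Krt14, which define squamous epithelium, were looked for but are not among the 770 genes.

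The promoters of the family's first ligand gene and of its feedback gene are printed because NF-κB is known to drive Il6 and STAT3 to drive Socs3. Both are RefSeq sequences of build GRCm38.p6, from 250 bases before the start of the gene to 50 after it, read along the gene's own strand. Il6 lies at chr5:30012864-30013163 on the plus strand, and Socs3 at chr11:117969317-117969616 on the minus strand. Capitals mark every match, on either strand, to GGANTTTCC (NF-κB), TTCNNNGAA (STAT) or TGANTCA (AP-1), which do not overlap each other here.
Il6: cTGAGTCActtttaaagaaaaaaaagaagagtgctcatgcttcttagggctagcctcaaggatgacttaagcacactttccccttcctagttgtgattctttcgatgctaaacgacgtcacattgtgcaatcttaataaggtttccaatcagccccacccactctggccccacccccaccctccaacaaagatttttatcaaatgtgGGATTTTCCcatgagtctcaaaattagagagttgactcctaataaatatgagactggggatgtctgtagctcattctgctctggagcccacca
Socs3: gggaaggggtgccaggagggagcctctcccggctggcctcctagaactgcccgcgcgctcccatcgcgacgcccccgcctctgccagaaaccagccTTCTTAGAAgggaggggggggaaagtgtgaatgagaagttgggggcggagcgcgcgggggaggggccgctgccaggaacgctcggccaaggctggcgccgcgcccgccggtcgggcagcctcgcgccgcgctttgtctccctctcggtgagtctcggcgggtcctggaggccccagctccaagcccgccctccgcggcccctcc
The Il6 promoter held the NF-κB letters with their first base 43 bases before the start and the AP-1 letters 249 bases before it. The Socs3 promoter held the STAT letters 154 bases before the start. RefSeq promoters were found for 7 of the 8 genes, 9 promoters in all. Of these 9, 1 held the NF-κB letters and 1 the STAT letters, against 1.25% and 8.30% of all 32851 promoters. The AP-1 letters stood in 3 of the 9, those of Il6, Il11 and Lif, against 7.81% of all. A match to these letters describes the sequence only.

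Il6 encodes the ligand that gives the family its name. It was 4.89, 6.04 and 5.62 log2 in anti-CD40 tumours 1 to 3, against 6.06, 5.92 and 4.84 in vehicle tumours 1 to 3. The groups overlapped fully, and the highest and lowest libraries were both vehicle. The mean was 5.52 ± 0.58 in anti-CD40 and 5.61 ± 0.67 in vehicle tumours (SD, n = 3 each), a difference of −0.089 (limma adjusted p = 0.974). Its 95% confidence interval ran from −1.08 to 0.90, or from about 0.47-fold to 1.87-fold, and a change within it could not be told from none. These values lay mostly at background and include the offset, so the interval does not bound the change of the Il6 transcript itself. The direction turned with single libraries left out: the difference was 0.22 without anti-CD40 1, 0.14 without vehicle 1 and 0.066 without vehicle 2.

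The counts behind these Il6 values were small. They were 11, 25 and 16 in anti-CD40 tumours 1 to 3 and 34, 17 and 14 in vehicle tumours 1 to 3. The negative controls alone gave between 5 and 25 counts in these libraries. Il6 was above the limit in anti-CD40 2, with 25 counts against 24.7, and in vehicle 1. Vehicle 1, with 34 counts, had a 95% Poisson interval of 23.5 to 47.5, which covers counting error only and includes its limit of 25.2. The 17 counts of vehicle 2 gave 5.92 log2, close to the 6.06 of vehicle 1, because its library factor was the largest. In the other 4 tumours Il6 was not detectable above background at this depth.

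**Figure D1:**
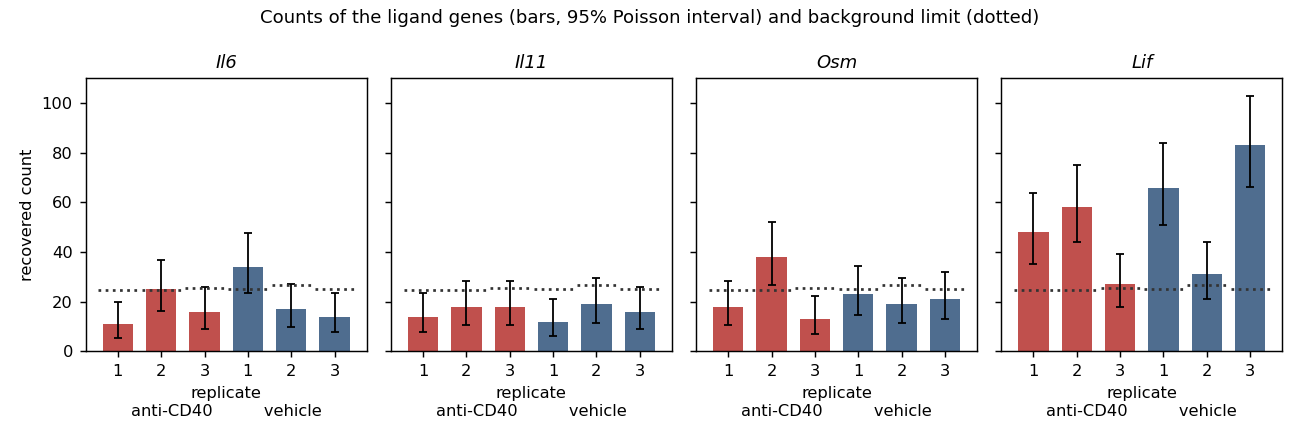
Recovered whole counts (y axis) of the 4 ligand genes in each library (x axis, replicates 1 to 3 of anti-CD40 in red and of vehicle in blue), with exact 95% Poisson intervals as error bars and the background limit of each library as a dotted line. Il11 stays below the limit in all 6 libraries, Il6 passes it in 2 and Osm in 1, and Lif lies above it in all 6.

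Il11, whose product is made mainly by stromal cells, did not exceed background in any library. Its counts were 14, 18 and 18 in anti-CD40 tumours and 12, 19 and 16 in vehicle tumours. On the log2 scale it was 5.52 ± 0.30 in anti-CD40 and 5.27 ± 0.70 in vehicle tumours (SD, n = 3 each). The fitted difference of 0.26 became −0.0090 without vehicle 1 and 0.66 without vehicle 2, and all the counts behind it lay within background.

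Osm encodes oncostatin M, a cytokine of activated macrophages, neutrophils and T cells. Its log2 level was 5.52, 6.60 and 5.35 in anti-CD40 tumours 1 to 3, against 5.55, 6.06 and 5.34 in vehicle tumours 1 to 3. Only anti-CD40 2 rose above background, with 38 counts and a Poisson interval of 26.9 to 52.2 against a limit of 24.7. The other 5 libraries had 13 to 23 counts. The difference of 0.17 (95% interval −0.72 to 1.07) was −0.22 without anti-CD40 2, the library that set its direction. Osm and its chromosome 11 neighbour Lif lie next to each other in the RefSeq annotation. Osm was highest in anti-CD40 2, where Lif (7.19) was nearly as high as in vehicle 3 (7.20), its highest library. The mean of 7 neutrophil markers was 9.64, 9.19 and 7.06 in anti-CD40 tumours 1 to 3 and 7.26, 9.71 and 6.79 in vehicle tumours 1 to 3. Only 2 of the 7 lay above background in all libraries, and the 7 peaked in different libraries. Cxcr2 (8.19), Csf3r (8.29) and S100a8 (17.18) were highest in anti-CD40 2. Camp (11.17) and Elane (9.19) were highest in anti-CD40 1, and Mpo (9.57) and Ltf (7.45) in vehicle 2. The part of these genes in the Osm values was not tested.

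Lif, which encodes leukaemia inhibitory factor, was the one ligand gene of the 4 above background in all libraries. It stood at 6.84, 7.19 and 6.32 log2 in anti-CD40 tumours 1 to 3, from 48, 58 and 27 counts. Vehicle tumours 1 to 3 had 6.97, 6.73 and 7.20 log2, from 66, 31 and 83 counts. The lowest value was that of anti-CD40 3, where 27 counts stood just over a limit of 25.4. The 95% Poisson interval of that count, 17.8 to 39.3, included the limit. So did that of vehicle 2, 21.1 to 44.0 against a limit of 26.6. The group means were 6.78 ± 0.44 in anti-CD40 and 6.97 ± 0.23 in vehicle tumours (SD, n = 3 each). The difference of −0.18 had an interval from −0.86 to 0.49 (limma adjusted p = 0.974), and it was 0.046 without anti-CD40 3.

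**Figure D2:**
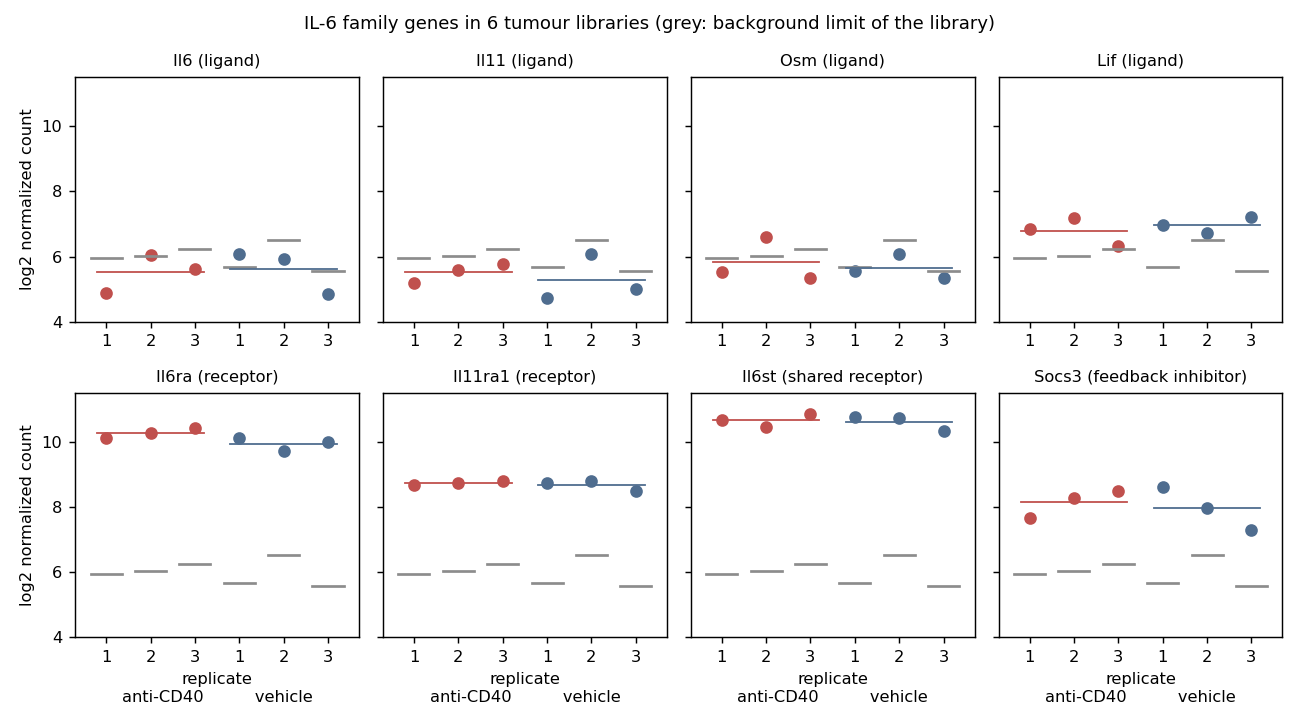
Log2 normalized count (y axis) of each of the 8 genes in each library (x axis, replicates 1 to 3 of anti-CD40 in red and of vehicle in blue), with the group mean as a coloured line and the background limit of each library as a grey bar. The receptor genes and Socs3 lie clear of the grey bars in all 6 libraries, while Il6, Il11 and Osm lie at or under them in at least 4, and red and blue points overlap in every panel.

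Il6ra, the IL-6 binding chain, came closest to a separation of the groups. Its level was 10.10, 10.27 and 10.42 log2 in anti-CD40 tumours 1 to 3, against 10.10, 9.72 and 9.98 in vehicle tumours 1 to 3. Anti-CD40 2 and 3 exceeded every vehicle library, whereas anti-CD40 1 (10.0981) fell just short of vehicle 1 (10.0986). The mean was 10.26 ± 0.16 in anti-CD40 and 9.93 ± 0.20 in vehicle tumours (SD, n = 3 each), a difference of 0.33 (SE 0.22, limma adjusted p = 0.974, unadjusted p = 0.182). The 95% interval ran from −0.19 to 0.85, or from 0.87-fold to 1.81-fold. An exact permutation test on Il6ra alone gave p = 0.2, two-sided, where 3 against 3 samples allow no p below 0.1.

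Il6ra was the one gene of the 8 whose direction held in each of the 13 alternative fits, with differences between 0.19 and 0.41. Some of these fits could not move its difference. The replicate block, the change of variance model, the filter and the floor left it at 0.33 by construction. The smallest difference came after quantile normalization. Its counts were 477, 503 and 488 in anti-CD40 tumours and 595, 255 and 586 in vehicle tumours, so counting error was minor. The lowest Il6ra count, in vehicle 2, belonged to the library with the largest scaling factor.

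Il6st, the shared gp130 chain, had 10.67, 10.45 and 10.84 log2 in anti-CD40 tumours 1 to 3 and 10.75, 10.74 and 10.31 in vehicle tumours 1 to 3. Each group held 1 library lower than the others, anti-CD40 2 and vehicle 3. The mean was 10.65 ± 0.20 in anti-CD40 and 10.60 ± 0.25 in vehicle tumours, a difference of 0.054 with an interval from −0.50 to 0.61. The sign depended on single libraries: the difference was −0.088 without vehicle 3 and −0.040 without anti-CD40 3. Quantile normalization gave −0.0095.

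Il11ra1, the IL-11 binding chain, was the steadiest gene of the family. It was 8.68, 8.72 and 8.79 log2 in anti-CD40 tumours 1 to 3, against 8.72, 8.79 and 8.49 in vehicle tumours 1 to 3. Vehicle 3 was the lowest library, and the other 5 lay between 8.68 and 8.79. Its range over the 6 libraries, 0.30 log2, exceeded that of only 3.63% of the 523 genes above background in all libraries. The difference of 0.064 (interval −0.42 to 0.55) was −0.024 without vehicle 3. The mouse genome also holds Il11ra2, a close copy of this gene, and the labels do not say whether the measurement told the copies apart, so this level is uncertain.

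Because a library's scaling factor acts on both genes alike, the log2 gap between a pair of receptor genes in the same library is nearly free of it. Il6ra minus Il6st was −0.57, −0.18 and −0.42 in anti-CD40 tumours 1 to 3 and −0.65, −1.02 and −0.33 in vehicle tumours 1 to 3. The gap averaged −0.39 ± 0.20 in anti-CD40 and −0.67 ± 0.34 in vehicle tumours, with overlapping groups (exact permutation p = 0.4, two-sided, n = 3 each). Il11ra1 minus Il6st averaged −1.92 ± 0.17 in anti-CD40 and −1.93 ± 0.10 in vehicle tumours (exact permutation p = 1, n = 3 each). These gaps were chosen after the values were seen. They compare libraries, not the amounts of the transcripts within a pair.

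Socs3, the feedback inhibitor and an established STAT3 target, varied most among the 5 members above background in all libraries. It was 7.65, 8.26 and 8.49 log2 in anti-CD40 tumours 1 to 3, against 8.60, 7.97 and 7.30 in vehicle tumours 1 to 3. The highest and the lowest library were both vehicle tumours, 1.30 log2 apart, a wider range than that of 75.3% of the 523 genes above background in all libraries. The mean was 8.14 ± 0.43 in anti-CD40 and 7.96 ± 0.65 in vehicle tumours (SD, n = 3 each). The difference of 0.18 (interval −0.72 to 1.08) ranged from −0.15, with vehicle 3 left out, to 0.50, with vehicle 1 left out. Leaving out anti-CD40 1 gave 0.42, anti-CD40 2 gave 0.12 and anti-CD40 3 gave 0.0021.

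**Figure D3:**
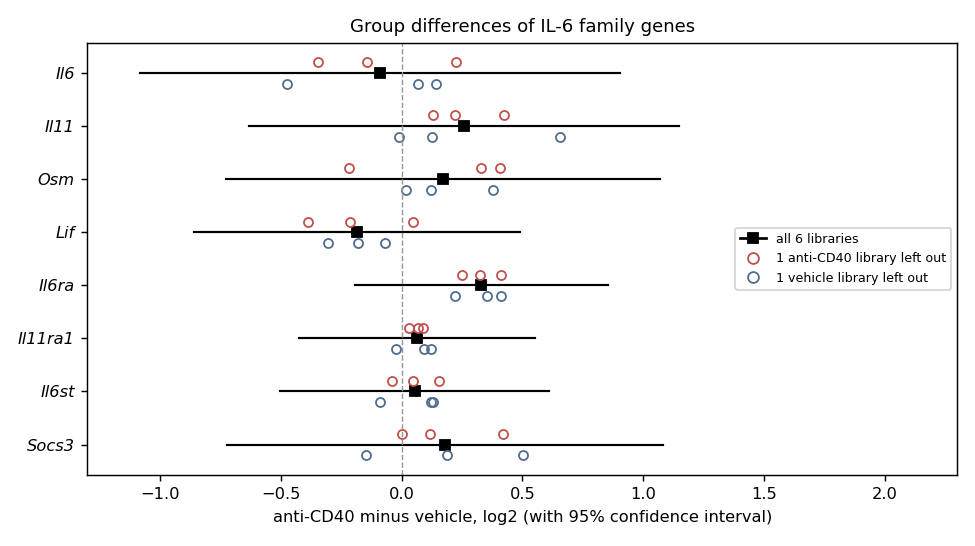
Difference of the group means (x axis, anti-CD40 minus vehicle, log2) for each of the 8 genes (y axis), with the 95% confidence interval of the limma fit to all 6 libraries in black. Open circles give the difference with 1 anti-CD40 library (red) or 1 vehicle library (blue) left out. All intervals include 0, and Il6ra alone has every circle on the same side of 0.

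Vehicle 3 was the lowest library for Il6st, Il11ra1 and Socs3, and it was low across the panel. The mean over all 770 genes was 8.18, 8.36 and 8.12 in anti-CD40 tumours 1 to 3, against 8.26, 8.38 and 7.89 in vehicle tumours 1 to 3. The means of the macrophage, fibroblast and endothelial markers were also lowest in vehicle 3. So were those of the neutrophil and lymphocyte markers, but the lymphocyte mean (5.62) was close to that of anti-CD40 3 (5.64). Only 2 of the 7 neutrophil and 3 of the 9 lymphocyte markers lay above background in all libraries. Vehicle 3 also had the lowest background limit, 5.57 log2. Its mean of 20 housekeeping genes, 11.05, lay within the 11.01 to 11.11 of the other libraries. The normalization rule is not given, so such equal means may come from the scaling itself. The mean of 8 macrophage markers was 8.75, 8.87 and 8.73 in anti-CD40 tumours 1 to 3, against 8.76, 8.71 and 7.97 in vehicle tumours 1 to 3. The mean of 6 fibroblast markers was 11.15, 11.35 and 11.18 in anti-CD40 tumours and 11.15, 11.31 and 10.60 in vehicle tumours. The mean of 6 squamous epithelial markers was highest in vehicle 3, at 10.87, beside 10.36 to 10.81 in the others, but its members went both ways. The integrin genes Itga6 (13.38) and Itgb4 (12.26) were highest there, Egfr (9.73) and Muc1 (6.02) were lowest, and Cdh1 and Epcam were neither. The 6 fibroblast and 7 endothelial markers all lay above background in all libraries, as did 7 of the 8 macrophage and 5 of the 6 squamous markers. The offset keeps every log2 value above 0, so a listed value does not mean that a marker was detected. The lymphocyte marker Cd79a, for example, lay above background in 0 libraries. The part of these shifts in the levels of the family was not tested, and fewer cells of a type cannot be told apart from less RNA per cell in bulk tissue.

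The 5 genes above background in all libraries were compared with each other over the 6 samples, 10 pairs in all. Lif ran opposite to Il6st, with Pearson r = −0.85 (exact permutation p = 0.0194, 0.194 after Benjamini-Hochberg adjustment over the 10 pairs) and Spearman rho = −0.83 (exact p = 0.0583, adjusted 0.194). Without the 2 samples farthest from the median of Lif, r was −0.81. Il11ra1 ran with Il6st, at r = 0.83 (exact p = 0.05, adjusted 0.229) and rho = 0.89 (exact p = 0.0333, adjusted 0.194). That relation rested on few samples, since r was 0.28 without the 2 farthest from the median of Il11ra1. No pair passed after adjustment. Socs3 had r = 0.66 with Il6st (exact p = 0.186, adjusted 0.372) and 0.49 with Il6ra (exact p = 0.342, adjusted 0.569).

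Outside the family, the genes whose pattern over the 6 libraries was most like each member were sought among 518 genes above background in all libraries. These correlations were picked as the highest of many and are descriptions over 6 samples that share scaling. For Il6ra they were Thbd, the thrombomodulin gene (r = 0.98, rho = 1, 12.07 ± 0.25 in anti-CD40 and 11.66 ± 0.32 in vehicle tumours), and the Toll-like receptor gene Tlr4 (r = 0.95, rho = 0.94). For Il6st they were Il3ra (r = 0.96, rho = 0.94) and the transcription factor gene Nfatc2 (r = 0.93, rho = 1). For Socs3 they were Nod1, a sensor of bacterial peptidoglycan (r = 0.95, rho = 0.83), and the interleukin 1 receptor gene Il1r1 (r = 0.95, rho = 0.94). Il11ra1 was most like the Fc receptor gene Fcgr3 (r = 0.94, rho = 0.77) and the lysozyme gene Lyz2 (r = 0.93, rho = 0.71), which fell to 0.57 and 0.65 without the 2 libraries farthest from the median. For Lif they were the splicing factor gene Sf3a3 (r = 0.90, rho = 0.83) and the integrin gene Itga2 (r = 0.90, rho = 0.89). Without the 2 libraries farthest from the median of Lif, r was 0.57 for Sf3a3 and 0.84 for Itga2. Sf3a3 is one of the 20 housekeeping genes and spanned only 0.25 log2 over the 6 libraries.

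Of 14 further cytokines and receptors of the gp130 family that were looked for, 2 are in the table, the subunits of IL-27, a cytokine that also uses gp130. Il27 was 4.95 ± 0.21 in anti-CD40 and 5.45 ± 0.41 in vehicle tumours (SD, n = 3 each), at or below background in every library. Ebi3 was 6.36, 6.41 and 6.37 in anti-CD40 tumours 1 to 3 and 6.28, 7.28 and 6.19 in vehicle tumours 1 to 3, above background in all. Vehicle 2 alone stood out for Ebi3. The difference of −0.20 did not pass the test (limma adjusted p = 0.974).

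Of the kinases, STAT factors and regulators downstream of gp130, 10 were measured, all above background in every library. In the mean 6 were higher and 4 lower, with a median of 0.11, and 0 passed the test in either direction. Stat3, the main transcription factor of the pathway, was 11.97, 11.87 and 11.86 in anti-CD40 tumours 1 to 3, against 11.92, 11.51 and 11.38 in vehicle tumours 1 to 3. Vehicle 1 lay among the anti-CD40 libraries, and the difference was 0.30 (interval −0.25 to 0.84). Jak1, a kinase bound to gp130, was 11.76 ± 0.063 in anti-CD40 and 11.60 ± 0.17 in vehicle tumours, and Jak2 was 10.26 ± 0.061 in anti-CD40 and 10.14 ± 0.16 in vehicle. Among the members of lowest p were Socs1, a further JAK inhibitor (8.36 ± 0.32 in anti-CD40 and 8.79 ± 0.21 in vehicle), Stat3 and Stat5b (a difference of 0.18).

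Of 37 genes described as STAT3 targets, 25 were measured and 22 lay above background in all libraries. In the mean 12 were higher and 13 lower, with a median of −0.081, and 0 passed the test. At an unadjusted p under 0.05 there were 2 of the 25, Birc5 and Cd274, both lower in the mean, beside 3.25% of all genes. Birc5, which encodes survivin, was 7.85, 8.19 and 7.41 in anti-CD40 tumours 1 to 3, against 8.73, 8.82 and 8.91 in vehicle tumours 1 to 3. The groups stood apart for 3 of the 25, close to the 10.3% of all genes: Birc5, Cd274, the gene of the checkpoint ligand PD-L1 (7.86 ± 0.48 in anti-CD40 and 8.88 ± 0.60 in vehicle), and Irf1, an interferon-induced factor (9.12 ± 0.12 in anti-CD40 and 9.82 ± 0.56 in vehicle). Fos, an immediate-early gene, was 10.72 ± 0.46 in anti-CD40 and 11.86 ± 1.22 in vehicle tumours. The acute phase gene Saa1 differed by −0.081, and the survival gene Bcl2l1 was 9.85 ± 0.18 in anti-CD40 and 9.55 ± 0.35 in vehicle. The limma adjusted p was 0.988 for Saa1 and 0.974 for the others named here. Several of these genes are also known to respond to interferons or other signals.

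**Figure D4:**
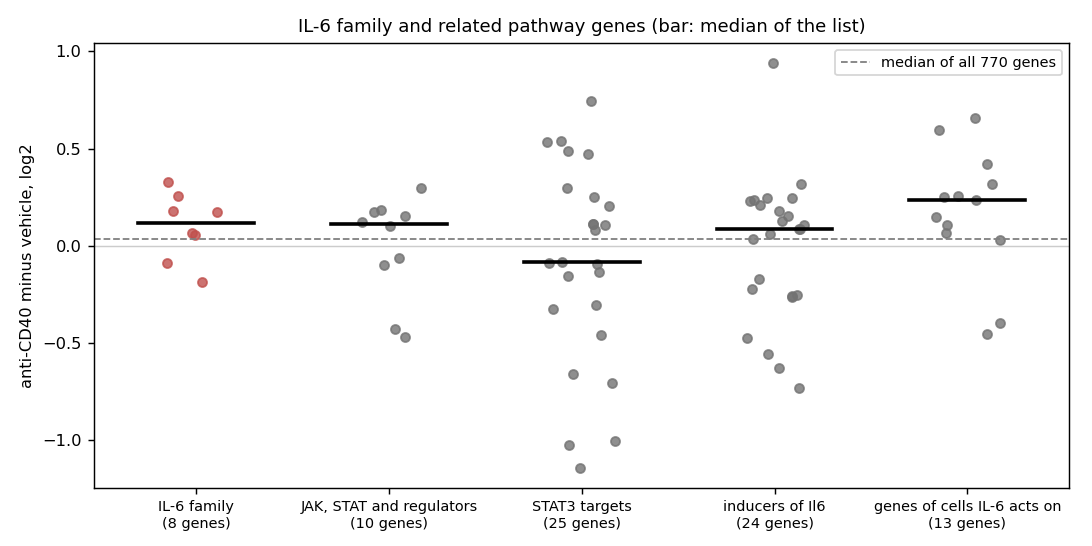
Difference of the group means (y axis, anti-CD40 minus vehicle, log2) for the 8 IL-6 family genes (red) and the measured genes of 4 related lists (grey, 1 point per gene), with the median of each list as a black bar and that of all 770 genes as a dashed line. The medians lie between −0.081 and 0.24 and no gene shown passed the adjusted test.

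Of 25 genes that induce Il6 or carry such signals, 24 were measured. In the mean 15 were higher and 9 lower, with a median of 0.086, and 0 passed the test. Cd40, which encodes the receptor that the antibody binds, was 6.73 ± 0.49 in anti-CD40 and 6.98 ± 0.42 in vehicle tumours (SD, n = 3 each). It was above background in 5 libraries, and anti-CD40 3 (6.16) lay under its limit of 6.24. Without that library the difference of −0.25 became 0.028. Il1b, a strong inducer of Il6, was 8.10 ± 1.82 in anti-CD40 and 8.83 ± 0.76 in vehicle tumours, and Tnf was 6.46 ± 0.37 in anti-CD40 and 6.72 ± 0.09 in vehicle. The NF-κB subunit gene Rela was 9.85 ± 0.016 in anti-CD40 and 9.72 ± 0.12 in vehicle tumours. The members of lowest p were Tnfaip3 (−0.63) and Rel (−0.55), an inhibitor and a subunit of NF-κB, Il1a (−0.47) and the IL-33 receptor gene Il1rl1 (0.94). Il1rl1 was 9.52 in anti-CD40 2, the library with the highest Osm, and no higher than 7.29 in any other library. The groups stood apart for 2 of the 24, beside 10.3% of all genes, both higher in the mean in anti-CD40 tumours: Tlr4 (a difference of 0.25) and Irak1, a kinase of interleukin 1 and Toll-like receptor signalling (0.23). Neither passed the test (limma adjusted p = 0.974 for both).

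Of 14 genes of helper T, plasma and myeloid cells on which IL-6 acts, 13 were measured. The anti-CD40 mean was higher for 11 and lower for 2, the median was 0.24 and 0 passed the test. Only 7 of the 13 lay above background in all libraries. Irf4, a transcription factor of plasma cells and activated lymphocytes, was 6.95, 6.60 and 7.26 in anti-CD40 tumours 1 to 3, against 6.35, 6.54 and 6.13 in vehicle tumours 1 to 3. It was the 1 gene of the 13 whose groups did not overlap, beside 10.3% of all genes, with a difference of 0.60 (limma adjusted p = 0.974). Xbp1, a plasma cell and secretory factor, was 11.84 ± 0.36 in anti-CD40 and 11.52 ± 0.32 in vehicle tumours. The receptor genes Il10ra and Il21r were lower in the mean, with differences of −0.40 and −0.45.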

How the data were processed

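Per its name, the table that the authors deposited holds log2 normalized counts, with 770 gene rows, 6 positive and 8 negative control rows and a column for each of the 6 samples. Platform, counting software and normalization rule: not given in the sources used here. Whole counts were recovered from the spacing of the values: all 4704 came out whole within 0.05. Groups were compared with limma 3.58.1 (lmFit and eBayes, no trend) in R 4.3.3, two-sided, with Benjamini-Hochberg adjustment over all 770 genes at 0.05, 4 residual and 3.37 prior degrees of freedom. The procedure was tested on simulated data with changes larger than any difference seen in the 8 members, so that test says nothing on smaller changes. Single genes were also tested by exact permutation. Python 3.11.15, scipy 1.17.1 and matplotlib 3.10.9 were used. The offset in the logged values makes fold changes at low counts look smaller than they are. The members and lists were chosen with earlier results of these data known. Named genes are the 8 members, Cd40, the other gp130 family genes, the 4 of lowest p in each list among genes above background in at least 3 libraries, and the 2 most like each member; 1 gene under this rule is not reported here. Others were named for their role after their values were seen. Alternatives covered the replicate block, variance model, normalization, filter, floor, recovered counts and each sample left out.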

Additional observations from a re-analysis of the deposited data

How the results depend on the processing

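None of the 13 alternatives called a gene: the count was 0 of the 8 members and 0 of all genes each time, with a lowest member adjusted p of 0.764. With 1 library left out these counts ranged from 0 to 0. The fit with the replicate block also called 0 genes. It cannot move a difference of means in this balanced design, so the 0.33 of Il6ra stayed the same by construction. Same-numbered samples did not deviate together (correlations of −0.43, 0.069 and 0.28), so the numbers were not taken as pairs. Leaving out 1 library at a time moved the difference between −0.47 and 0.22 for Il6, −0.0090 and 0.66 for Il11, −0.22 and 0.41 for Osm, −0.39 and 0.046 for Lif, 0.22 and 0.41 for Il6ra, −0.024 and 0.12 for Il11ra1, −0.088 and 0.16 for Il6st, −0.15 and 0.50 for Socs3, and −0.48 and 0.028 for Cd40. Of these 9 genes, Il6ra alone kept its direction throughout, and the cause of the turns was not tested. Quantile normalization gave Il6st −0.0095. With values raised to the highest background limit, 6.52 log2, Il6 and Il11 differed by 0 by construction, and the filter on low values left out Il6, Il11 and Osm. With 3 samples per group and few counts, depth limits every statement on these ligand genes.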
